A study of Mus musculus with 9 samples.

Results

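The collagen chains are the genes that encode the alpha chains of collagen molecules. They were taken as every row of the count table whose symbol reads Col, a number, a and a number, without Col8a1 and Col8a2. The rule found 42 of the 56481 symbols in the table. By class, 11 are fibrillar chains, 9 are basement membrane chains, 9 are fibril-associated chains, 4 are transmembrane chains, and the other 9 are collagen VI and remaining chains. RNA sequencing of mouse cells in culture gave 3 libraries for each of 3 groups. The iCEC libraries come from corneal endothelial-like cells, which were induced on gelatin out of neural crest cells with 5 µM SB431542, an inhibitor of the TGF-beta type I receptor, in DMEM/F12 with 5% knockout serum replacement, non-essential amino acids and 2-mercaptoethanol, and were characterised at day 12. The pCEC libraries come from primary corneal endothelial cells, and the pNCC libraries from primary neural crest cells of E13.5 embryos. Both of these primary cultures grew in DMEM with 10% serum and without the inhibitor, so that the medium, the serum and the inhibitor changed together between iCEC and the primary cells and cannot be told apart.

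A collagen molecule winds alpha chains into a triple helix, and many collagens need more than 1 gene product for it. Fibrillar collagens build the tensile fibres of stroma, collagen IV networks form the scaffold of basement membranes such as Descemet's membrane under the corneal endothelium, fibril-associated collagens decorate fibres, and transmembrane collagens sit in the cell surface. TGF-beta signalling is a well known inducer of fibrillar collagen genes in fibroblasts, and neural crest cells give rise to the stroma and endothelium of the cornea.

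The libraries held between 27389292 counts (pCEC 3) and 47967113 counts (iCEC 1). A total of 3 counts, taken here as the floor for detection, was therefore worth 0.0625 to 0.110 CPM, the unit in which counts are scaled to the library total. These limits cover counting error only. The labels do not say that replicates came from separate animals or inductions, so p-values measure the spread between these libraries, which may be technical. Library iCEC 3 lay 1.72 and 1.79 log2 units from the other iCEC libraries, against a distance of 1.17 between those, and results that rest on it are given with and without it below. The labels give total RNA for pCEC 2 and 3 and polyA RNA for the other 7 libraries. The cell labels were checked against marker lists. Corneal epithelium markers, 9 in all, summed to 21810, 13210 and 14490 CPM in iCEC, 57260, 73040 and 73020 CPM in pCEC, and 81.6, 104 and 133 CPM in pNCC. Krt12, the keratin of corneal epithelium, was at 8974, 10430 and 11140 CPM in pCEC and at 0, 0 and 0.0298 CPM in iCEC. Pax6 averaged 0.291 CPM in iCEC and 832 CPM in pCEC, and Aldh3a1 averaged 99.5 CPM and 24570 CPM. Krt14 and Cdh1 of the same list averaged higher in iCEC than in pCEC. The name corneal groups, used below for iCEC and pCEC, follows the labels and is no statement on cell type. The 8 corneal endothelium markers summed to 644, 688 and 852 CPM in iCEC, 1012, 1071 and 973 CPM in pCEC, and 479, 494 and 327 CPM in pNCC. Between iCEC and pCEC, 0 of the 8 were called higher in iCEC and 2 lower. Slc4a11, a transporter, averaged 6.73 CPM in iCEC against 61.1 CPM in pCEC, and Aqp1 0.304 CPM against 266.5 CPM. Lmx1b, Alcam and Cdh2 also averaged lower in iCEC. Atp1b1, a subunit of the sodium pump, averaged 129.5 CPM in iCEC against 11.9 CPM in pCEC, with 14.7, 20.1 and 0.949 CPM in the pCEC libraries. Foxc1 and Tjp1 also averaged higher in iCEC. The 7 neural crest markers summed to 94.5, 123 and 154 CPM in iCEC, 186, 268 and 218 CPM in pCEC, and 312, 430 and 204 CPM in pNCC. The defining members Sox10 (at most 0.0545 CPM in iCEC and 0.444 CPM in pCEC, at least 16.9 CPM in pNCC) and Foxd3 (0 in iCEC, at most 0.146 CPM in pCEC, at least 8.45 CPM in pNCC) were near or at 0 outside pNCC. Ets1, Ngfr and Pax3 also averaged highest in pNCC, but Ngfr and Pax3 overlapped another group. Pax3 had 10.9, 9.645 and 0 CPM in iCEC against 12.2, 10.6 and 2.97 CPM in pNCC. Ngfr had 89.0, 124 and 106 CPM in pCEC against 159.5, 212 and 76.0 CPM in pNCC. Tfap2a ran the other way, averaging 43.5 CPM in iCEC, 84.4 CPM in pCEC and 4.83 CPM in pNCC. Tfap2b did so too, averaging 18.2, 25.5 and 5.09 CPM, with 0, 0 and 54.7 CPM in the iCEC libraries. Fibroblast markers, given further below, summed to 7476, 5853 and 8866 CPM in pNCC. In both iCEC and pCEC the epithelial sums were thus above the endothelial ones, and the part of these cells in the results below was not tested. In these bulk libraries fewer cells of a type and less RNA per cell cannot be told apart.

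Collagen chains took a smaller share of the RNA in iCEC and pCEC than in pNCC. The 42 chains held 0.227%, 0.212% and 0.391% of all counts in iCEC, 0.495%, 1.74% and 1.11% in pCEC, and 5.99%, 4.61% and 4.24% in pNCC. The groups did not overlap. Which class made up the collagen counts also differed. Fibrillar chains made 5.70 ± 3.33% of the collagen counts in iCEC, 34.8 ± 19.9% in pCEC and 76.2 ± 5.55% in pNCC (SD, n = 3 each). Basement membrane chains made 28.9 ± 7.29% in iCEC, 3.99 ± 2.21% in pCEC and 4.97 ± 1.14% in pNCC. Transmembrane chains made 49.1 ± 10.7% in iCEC, 49.1 ± 21.98% in pCEC and 0.260 ± 0.0792% in pNCC. A single gene held nearly all of the transmembrane counts, Col17a1, the hemidesmosome collagen. It took 60.9%, 45.1% and 40.3% of all collagen counts in iCEC, 73.5%, 31.1% and 42.3% in pCEC, and 0.0081%, 0.0180% and 0.0321% in pNCC. Compared per length, in CPM per kilobase of exon, Col17a1 ranked 1 among the chains in every iCEC and every pCEC library, and Col1a1 ranked 1 in every pNCC library.

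**Figure D1:**
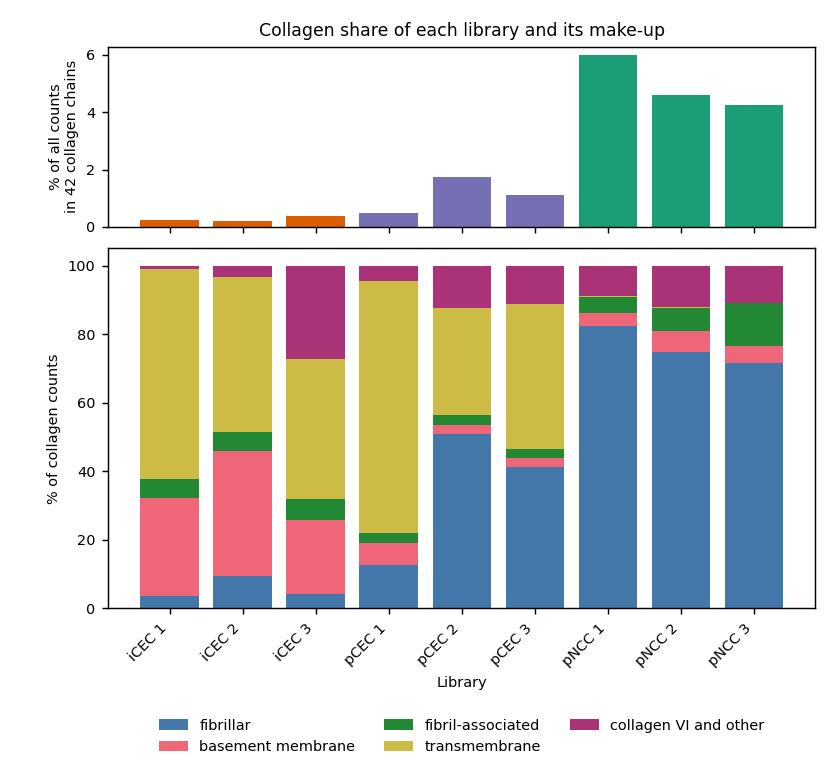
Top, the share of all counts (percent, vertical axis) held by the 42 collagen chains in each of the 9 libraries. Bottom, the percent of the collagen counts in each class. The pNCC bars lie above the others at the top, and the fibrillar class fills 71.6% to 82.4% of pNCC collagen counts at the bottom.

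Between 32 and 34 chains had enough counts for the test in each comparison, edgeR's quasi-likelihood test with Benjamini-Hochberg adjustment over all genes tested, and a chain is called where its adjusted p is under 0.05. In iCEC against pNCC, of 34 chains 7 rose, 15 fell and the test was not passed by 12, where 31.3% of all genes tested were called (16.1% higher, 15.1% lower). The median log2 fold change was -3.55 over the 34 chains, or -3.41 with chains at 0 in iCEC set at their bound, and 0.05 over all genes. In pCEC against pNCC, of 34 chains 8 rose, 20 fell and the test was not passed by 6, against 62.5% of all genes called (30.3% higher, 32.2% lower). The median there was -2.39 over the chains and -0.01 over all genes. In iCEC against pCEC, of 32 chains 4 rose, 7 fell and the test was not passed by 21, against 20.4% of all genes (10.5% higher, 9.92% lower). The median was -1.68 over the chains and 0.04 over all genes. The counts by class and by gene list below are to be read against these shares of all genes. The first 2 comparisons share the 3 pNCC libraries. With the polyA libraries alone, which leaves 1 pCEC library that is assumed to vary like the iCEC ones, edgeR called 0 of 37 chains and 0 of 18806 genes between iCEC and pCEC, while 11 chains and 2529 genes had an unadjusted p under 0.05. A fit in which no gene passes cannot show whether a call holds, so the sizes are given instead. With polyA libraries alone the log2 fold change was 8.92 for Col18a1 (6.70 with all libraries), 5.97 for Col2a1 (6.16), -7.48 for Col1a2 (-10.37) and -1.51 for Col17a1 (-1.95). The part of the labelled RNA kind was not tested. The ranges of adjusted p over all settings below include this fit. In pCEC against pNCC the polyA libraries alone leave pCEC 1 as the single pCEC library, so sizes are given there too. The log2 fold change was -5.81 for Col1a1 (-2.61 with all libraries) and 8.69 for Col17a1 (9.12).

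**Figure D2:**
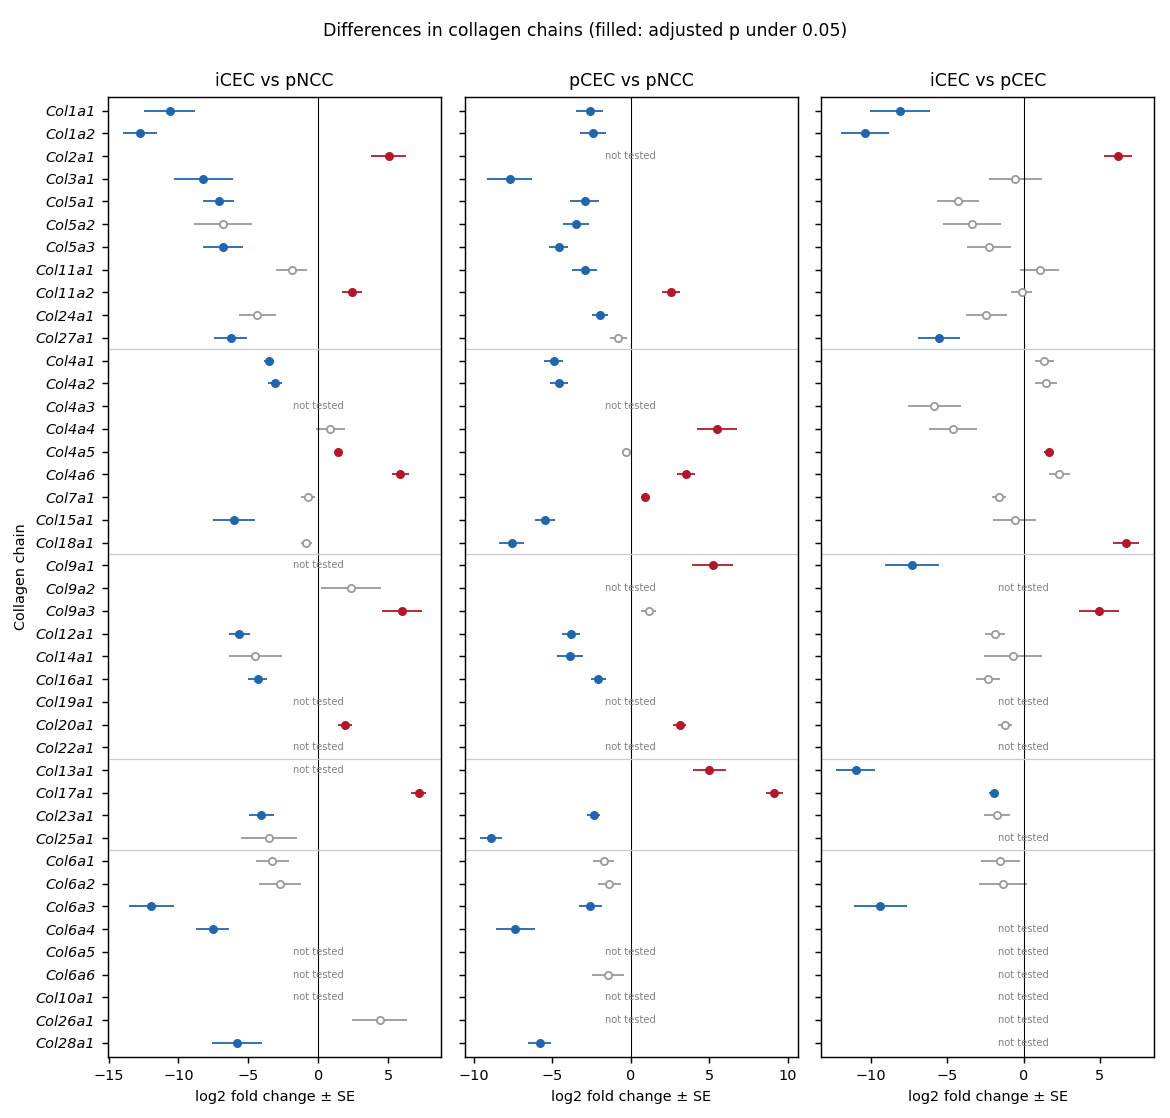
Log2 fold change (horizontal axis) with its SE (bars) of each tested chain in iCEC against pNCC, pCEC against pNCC and iCEC against pCEC. Filled points had an adjusted p under 0.05. The points of Col6a4 and of Col13a1 in iCEC against pCEC are fits against a group at 0, which depend on the prior count of the fit and are no measure of size. Most fibrillar chains lie left of 0 against pNCC, and Col17a1 lies far to the right.

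Of 11 fibrillar chains tested in iCEC against pNCC, 2 rose and 6 fell, with a median log2 fold change of -6.81. In pCEC against pNCC 1 of 10 rose and 8 fell (median -2.77), and in iCEC against pCEC 1 of 11 rose and 3 fell (median -2.44). Type I collagen, the main collagen of stroma, bone and tendon, was lower in iCEC than in both primary cultures. Col1a1 (mm10, chr11:94936224-94953042, plus strand) had 11.9, 13.1 and 0.119 CPM in iCEC, 247, 4013 and 2041 CPM in pCEC, and 16902, 13262 and 12535 CPM in pNCC. Its partner chain Col1a2 (chr6:4504814-4541544, plus strand) had 1.88, 2.51 and 0.238 CPM in iCEC, 282, 3553 and 1876 CPM in pCEC, and 14331, 9879 and 9440.1 CPM in pNCC. No group overlapped another for either chain, and the pCEC libraries spread over more than 10 times. Col1a1 fell in iCEC against pNCC (log2 fold change -10.63 ± 1.83 SE, adjusted p 0.0082) and so did Col1a2 (-12.73 ± 1.23, adjusted p 0.00145), and both calls remained without any 1 library. Against pCEC, Col1a2 fell in iCEC (-10.37 ± 1.57, adjusted p 0.00818; -9.60 without pCEC 2). The fall of Col1a1 against pCEC (-8.07 ± 1.96, adjusted p 0.0332) was no longer called without iCEC 1 (adjusted p 0.0921), iCEC 2 (adjusted p 0.0764), pCEC 1 (adjusted p 0.0558), pCEC 2 (0.0919, log2 fold change -7.24) or pCEC 3 (adjusted p 0.086), and was -7.44 without iCEC 3, with adjusted p up to 0.368 over all settings. In pCEC against pNCC, Col1a1 fell (-2.61 ± 0.861, adjusted p 0.0331) and so did Col1a2 (-2.41 ± 0.802, adjusted p 0.0342). Without pCEC 3, pNCC 1 or pNCC 2 the adjusted p of Col1a1 was 0.0993, 0.0761 or 0.0656, and that of Col1a2 0.101, 0.0843 or 0.0644, with highest values of 0.161 and 0.163 over all settings. The size also moved with the pCEC library, for Col1a1 to -2.02 without pCEC 1, -3.40 without pCEC 2 and -5.81 with polyA libraries alone, and for Col1a2 to -3.15 without pCEC 2 and -5.28 with polyA libraries alone. Keratocyte markers, 6 stromal genes of the cornea, moved along with these chains among the pCEC libraries, with sums of 606, 2550 and 1916 CPM in pCEC 1, 2 and 3. The sums were 2.69, 4.77 and 276 CPM in iCEC, and 2360, 1313 and 1402 CPM in pNCC. Kera, a defining one, was at 0 in all iCEC libraries, at 55.0, 466 and 361 CPM in pCEC, and at 1.49, 0.411 and 0.114 CPM in pNCC. Most of the pNCC sums came from Dcn, averaging 1432 CPM, and Lum, averaging 210 CPM. Most of the iCEC 3 sum came from Dcn at 146 CPM and Ogn at 130 CPM. The part of these markers in the result was not tested.

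**Figure D3:**
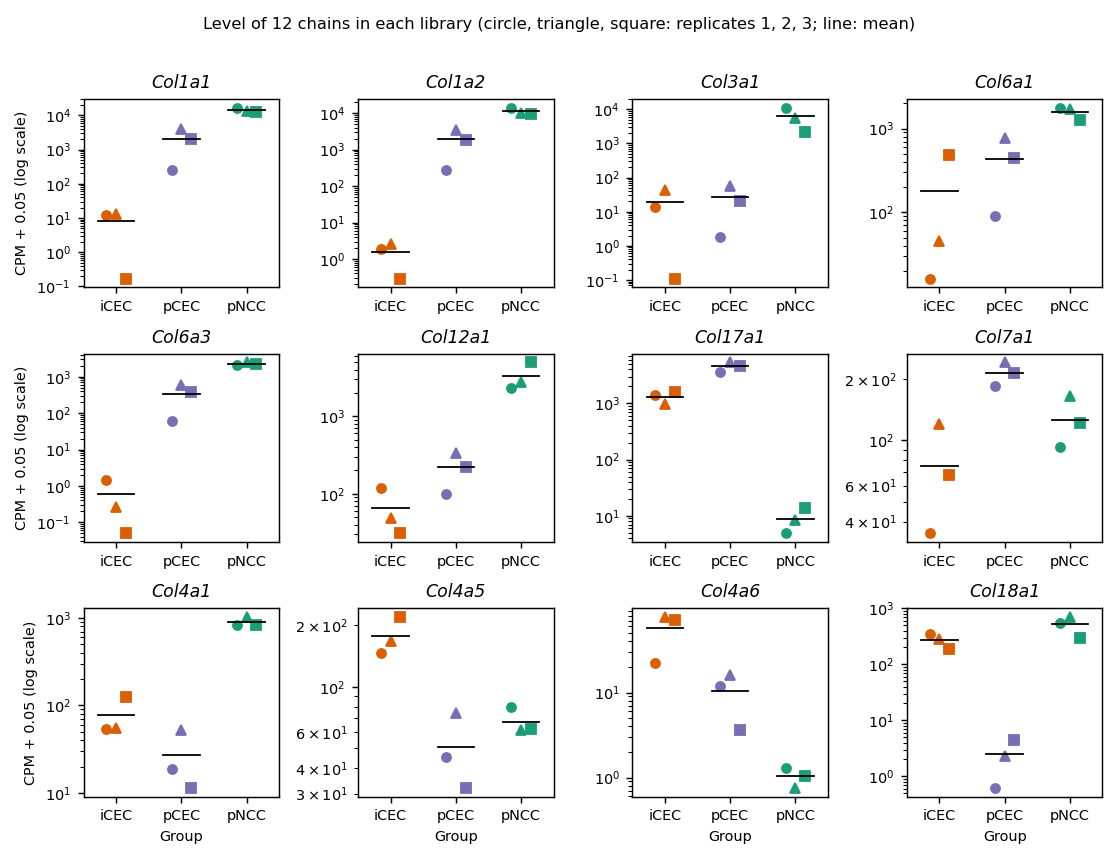
CPM plus 0.05 (vertical log axis) of 12 chains in each library. Circles, triangles and squares are replicates 1, 2 and 3, and the line is the group mean. Col1a1 and Col1a2 reach at most 13.1 CPM in iCEC and at least 9440.1 CPM in pNCC, while Col17a1 has at least 957 CPM in iCEC and pCEC and at most 13.6 CPM in pNCC.

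Collagen III and V chains, which mix into type I fibres or start them, were low in iCEC as well. Col3a1 (chr1:45311538-45349706, plus strand) had 14.1, 43.3 and 0.0595 CPM in iCEC, 1.80, 56.8 and 20.8 CPM in pCEC, and 11241, 5393 and 2116 CPM in pNCC. Both iCEC and pCEC lay below every pNCC library and overlapped each other. Against pNCC, Col3a1 fell in pCEC (-7.72 ± 1.42, adjusted p 0.00269), with -8.87 without pCEC 2, -7.11 without pCEC 1, -7.01 without pNCC 1 and -11.72 with polyA alone. In iCEC against pNCC it fell as well (-8.21 ± 2.13, adjusted p 0.031), but the call ended without iCEC 1 (adjusted p 0.0958), iCEC 2 (adjusted p 0.0512, log2 fold change -9.72), pNCC 1 (adjusted p 0.0865, log2 fold change -7.50), pNCC 2 (adjusted p 0.0821) or pNCC 3 (adjusted p 0.067), and its adjusted p ran up to 0.0991 over all settings. Col5a1 (chr2:27886425-28039514, plus strand), the main chain of collagen V, had 18.3, 33.7 and 2.38 CPM in iCEC, 30.9, 653 and 298 CPM in pCEC, and 3029, 2606 and 2586 CPM in pNCC. Its fall in iCEC (-7.13 ± 1.12, adjusted p 0.0061) kept its call without any 1 library, and was -8.02 without iCEC 2. The fall in pCEC (-2.92 ± 0.925, adjusted p 0.0285) lost its call without pCEC 3 (adjusted p 0.0922), pNCC 1 (adjusted p 0.063) or pNCC 2 (adjusted p 0.0584), and was -2.32 without pCEC 1, -3.82 without pCEC 2 and -6.44 with polyA alone, with adjusted p up to 0.15 over all settings. Col5a2 (chr1:45374321-45503282, minus strand) had 15.97, 60.1 and 0 CPM in iCEC, 37.0, 433 and 279 CPM in pCEC, and 3221, 2807 and 3345 CPM in pNCC. It fell in pCEC (-3.50 ± 0.81, adjusted p 0.00778; -6.37 with polyA alone). In iCEC it missed the threshold (-6.82 ± 2.10, adjusted p 0.0525) although all iCEC libraries lay below all pNCC libraries, and without iCEC 3 it passed (-6.27, adjusted p 0.00185), within a range of adjusted p of 0.00185 to 0.147. Col5a3 (chr9:20770050-20815067, minus strand), a further collagen V chain, averaged 1.82 ± 1.58 CPM in iCEC, 8.17 ± 5.27 CPM in pCEC and 220.2 ± 81.3 CPM in pNCC. It was lower in pCEC than in pNCC (-4.60 ± 0.588, adjusted p 0.000488; -6.08 with polyA alone) and in iCEC than in pNCC (-6.81 ± 1.43, adjusted p 0.0158), the iCEC call being lost without pNCC 1 (adjusted p 0.0566) or pNCC 2 (adjusted p 0.0581), with adjusted p up to 0.0594 over all settings.

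The remaining fibrillar chains did not share a direction, and Col2a1 and Col11a2 were rare in all groups but higher in iCEC than in pNCC. Col11a1 (chr3:114030540-114220718, plus strand), a chain of cartilage fibrils, had 2.77, 39.6 and 136 CPM in iCEC, 4.61, 49.4 and 19.7 CPM in pCEC, and 309.5, 172 and 139 CPM in pNCC. It fell in pCEC (-2.92 ± 0.797, adjusted p 0.0157; -3.87 without pCEC 2, and adjusted p 0.0635 without pCEC 3, -5.45 with polyA alone, adjusted p up to 0.108 over all settings) and did not pass in iCEC (-1.89 ± 1.11, adjusted p 0.247, or -3.18 and adjusted p 0.0664 without iCEC 3), where the iCEC libraries lay below the pNCC ones, iCEC 3 by little. Col2a1 (chr15:97975602-98004695, minus strand), the main chain of cartilage, was rare, with 6.55, 1.39 and 10.3 CPM in iCEC, 0.0898, 0.0555 and 0.0730 CPM in pCEC, and 0, 0.323 and 0.200 CPM in pNCC. It rose in iCEC against pCEC (6.16 ± 0.902, adjusted p 0.00728) and against pNCC (5.02 ± 1.25, adjusted p 0.0273). Against pNCC the call did not survive without iCEC 1 (adjusted p 0.0582), pNCC 1 (adjusted p 0.0515), pNCC 2 (adjusted p 0.0877, log2 fold change 5.73) or pNCC 3 (adjusted p 0.111), the last being the highest adjusted p over all settings. Col11a2, a partner chain of Col11a1, had 2.02, 5.12 and 10.4 CPM in iCEC, 5.24, 9.43 and 2.56 CPM in pCEC, and 1.74, 0.733 and 0.742 CPM in pNCC. It rose in pCEC against pNCC (2.55 ± 0.576, adjusted p 0.00647) and in iCEC against pNCC (2.40 ± 0.695, adjusted p 0.0432). The iCEC call was lost without iCEC 2 (adjusted p 0.0811), iCEC 3 (adjusted p 0.0654), pNCC 1 (adjusted p 0.076), pNCC 2 (adjusted p 0.163) or pNCC 3 (adjusted p 0.155). Cartilage markers, 9 genes, summed to 5.92, 9.56 and 107 CPM in iCEC, 15.3, 17.2 and 9.93 CPM in pCEC, and 18.0, 25.7 and 7.82 CPM in pNCC. Most of the sum in iCEC 3 came from Cnmd at 82.7 CPM, while Matn1, Matn3 and Hapln1 were at 0 in all iCEC libraries, and the part of this difference was not tested. Col27a1 averaged 0.318 ± 0.360 CPM in iCEC, 14.1 ± 11.6 CPM in pCEC and 26.7 ± 4.48 CPM in pNCC. It fell in iCEC against pNCC (-6.28 ± 1.18, adjusted p 0.0112; adjusted p 0.0516 without pNCC 2, and -7.63 without iCEC 1) and against pCEC (-5.52 ± 1.37, adjusted p 0.0355), the second call ending without iCEC 2 (adjusted p 0.0874), pCEC 1 (adjusted p 0.075), pCEC 2 (adjusted p 0.127, log2 fold change -4.62) or pCEC 3 (adjusted p 0.0893), and the value being -4.90 without iCEC 3, with adjusted p up to 0.434 over all settings. Col24a1 averaged 0.867 ± 1.31 CPM in iCEC, 4.40 ± 2.65 CPM in pCEC and 18.6 ± 6.72 CPM in pNCC. It fell in pCEC against pNCC (-1.95, adjusted p 0.0122; adjusted p 0.0504 without pCEC 3, -3.17 with polyA alone, adjusted p up to 0.192 over all settings), and in iCEC against pNCC it missed at 0.0524 but passed without iCEC 1 (-7.31, adjusted p 0.00493) or iCEC 3 (adjusted p 0.0296), within a range of adjusted p of 0.000506 to 0.144.

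Collagen VI chains, which form beaded microfibrils around cells, split within iCEC. Together with the remaining chains they make a class in which 0 of 6 rose and 3 fell against pNCC in iCEC (median log2 fold change -4.55, or -3.17 with chains at 0 at their bound) and in pCEC (median -2.16), and 0 of 3 rose and 1 fell in iCEC against pCEC (median -1.51). The share called against pNCC was 50.0% in iCEC and in pCEC, where 31.3% and 62.5% of all genes were called. At an unadjusted p under 0.05, edgeR had 0 higher and 4 lower of the 6 in each comparison with pNCC, and DESeq2 called the same numbers. Col6a1 (chr10:76708792-76726168, minus strand) had 16.1, 44.9 and 478 CPM in iCEC, 89.8, 766 and 439.7 CPM in pCEC, and 1783, 1697 and 1277 CPM in pNCC. Col6a2 (chr10:76595762-76623630, minus strand) had 5.30, 26.8 and 572 CPM in iCEC, 73.0, 789 and 411 CPM in pCEC, and 1387, 1286 and 987 CPM in pNCC. For both, every iCEC and pCEC library lay below every pNCC library, and iCEC 3 stood apart from iCEC 1 and 2. Neither was called in iCEC against pNCC (Col6a1 -3.28 ± 1.17, adjusted p 0.0802, and Col6a2 -2.76 ± 1.48, adjusted p 0.209). Without iCEC 3 both passed, at -5.61 (adjusted p 0.00124) and -6.15 (adjusted p 0.00324), within ranges of adjusted p of 0.00124 to 0.195 and 0.00324 to 0.363 over all settings. Against pCEC neither was called in iCEC (-1.51 and -1.33, or -3.85 and -4.75 without iCEC 3, at adjusted p 0.0523 and 0.0537). In pCEC against pNCC Col6a1 had -1.73 (adjusted p 0.0597) and Col6a2 -1.37 (adjusted p 0.141). With polyA libraries alone they passed at -4.11 (adjusted p 0.000311) and -4.03 (adjusted p 0.000307). Without pCEC 1 they also passed, at -1.18 (adjusted p 0.00905) and -0.81 (adjusted p 0.0498), and Col6a1 passed without pCEC 2 (-2.36, adjusted p 0.0324), within ranges of adjusted p of 0.000311 to 0.257 and 0.000307 to 0.465, so the size of the difference rests on which pCEC libraries are used. Col6a3 (chr1:90765923-90843971, minus strand), the long chain of the microfibril, did not follow iCEC 3. It had 1.42, 0.218 and 0 CPM in iCEC, 59.9, 599.5 and 381 CPM in pCEC, and 2107, 2523 and 2304 CPM in pNCC, with no overlap between groups. Its fall in iCEC was -11.94 ± 1.62 against pNCC (adjusted p 0.00395; -14.24 without iCEC 1) and -9.38 ± 1.74 against pCEC (adjusted p 0.0147; -11.67 without iCEC 1, -8.75 without iCEC 3, and lost at adjusted p 0.051 without pCEC 2 and adjusted p 0.0526 without pCEC 3, adjusted p up to 0.273 over all settings). In pCEC it was -2.59 ± 0.737 against pNCC (adjusted p 0.0187; adjusted p 0.0597 without pCEC 3, -5.24 with polyA alone, adjusted p up to 0.116 over all settings). Fibroblast markers, 6 genes, summed to 61.8, 86.3 and 1623 CPM in iCEC, 35.2, 76.7 and 59.6 CPM in pCEC, and 7476, 5853 and 8866 CPM in pNCC, and Postn alone made 1616 CPM of the sum in iCEC 3. Its part in the high Col6a1 and Col6a2 of that library was not tested.

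The start of transcription of 3 chains that fell against pNCC, by the GENCODE gene start, is shown for sequence context, as the 100 bases directly upstream, 5′ to 3′ on the gene's strand (RefSeq, GRCm38.p6). Capitals mark GGGCGG, the letters of the GC box.
Col3a1, chr1:45311438-45311537, plus strand: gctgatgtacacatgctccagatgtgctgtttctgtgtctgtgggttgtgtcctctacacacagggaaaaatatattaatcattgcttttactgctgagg
Col5a1, chr2:27886325-27886424, plus strand: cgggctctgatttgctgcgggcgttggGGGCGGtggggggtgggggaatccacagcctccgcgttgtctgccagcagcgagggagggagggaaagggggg
Col6a3, chr1:90843972-90844071, minus strand: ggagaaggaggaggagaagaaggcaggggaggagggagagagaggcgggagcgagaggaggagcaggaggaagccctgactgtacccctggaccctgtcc
The 3 sequences differ in base composition. All 3 chains were lower in iCEC and pCEC than in pNCC, and a link between sequence and level was not tested. G and C made 43.0% of the Col3a1 bases, with 0 CpG, 71.0% of those of Col5a1, with 7 CpG, and 65.0% of those of Col6a3, with 2 CpG. A match of letters is a description and not a site.

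The basement membrane chains moved in both directions. In iCEC against pNCC 2 of 8 rose and 3 fell (median log2 fold change -0.79), and in pCEC against pNCC 3 of 8 rose and 4 fell (median -2.43). In iCEC against pCEC 2 of 9 rose and 0 fell (median 1.36), where 3 were lower at an unadjusted p under 0.05 in edgeR and 3 by DESeq2. The share called was 62.5%, 87.5% and 22.2% in this order, against 31.3%, 62.5% and 20.4% of all genes, so the last lay near that of all genes. The classical collagen IV pair was lower in both corneal groups than in pNCC. Col4a1 (chr8:11198423-11312826, minus strand) had 53.3, 55.0 and 126 CPM in iCEC, 18.5, 52.3 and 11.3 CPM in pCEC, and 822, 1030.4 and 831 CPM in pNCC. Col4a2 (chr8:11312805-11449287, plus strand), which starts head to head with it over 22 shared bases, had 41.5, 60.2 and 175 CPM in iCEC, 14.6, 56.9 and 16.2 CPM in pCEC, and 737, 824 and 733 CPM in pNCC. All 6 iCEC and pCEC libraries lay below the pNCC ones for both chains. In iCEC against pNCC, Col4a1 fell 11.8-fold (-3.56 ± 0.338, adjusted p 0.00134) and Col4a2 fell 8.70-fold (-3.12 ± 0.501, adjusted p 0.00659; -3.83 without iCEC 3). The fall in pCEC was 29.9-fold for Col4a1 (-4.90 ± 0.601, adjusted p 0.000401) and 23.8-fold for Col4a2 (-4.57 ± 0.589, adjusted p 0.000503), or -5.77 and -5.47 without pCEC 2, and -5.57 and -5.68 with polyA alone. Between iCEC and pCEC the pair did not pass (Col4a1 1.36 ± 0.623, adjusted p 0.176). Its ratio per exon length, Col4a1 over Col4a2, was 0.863 ± 0.254 in iCEC, 0.851 ± 0.253 in pCEC and 1.03 ± 0.0651 in pNCC (SD, n = 3 each).

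The Col4a5 and Col4a6 pair, whose network is found in skin, smooth muscle and kidney basement membranes, went the other way in iCEC. Col4a5 (chrX:141475385-141689234, plus strand) had 146, 167 and 219.8 CPM in iCEC, 45.4, 74.2 and 31.9 CPM in pCEC, and 79.2, 61.3 and 61.7 CPM in pNCC. Every iCEC library was above every other library. It rose 2.62-fold in iCEC against pNCC (1.39 ± 0.183, adjusted p 0.00347) and 3.21-fold against pCEC (1.68 ± 0.334, adjusted p 0.0175), the second call being lost without pCEC 1 (adjusted p 0.0765) or pCEC 3 (adjusted p 0.0672), with adjusted p up to 0.204 over all settings. In pCEC against pNCC it did not pass (-0.29 ± 0.29, adjusted p 0.414) but did without pCEC 2 (adjusted p 0.0185), within a range of adjusted p of 0.0185 to 0.916. Col4a6 (chrX:141165403-141474076, minus strand) had 21.9, 77.7 and 71.8 CPM in iCEC, 11.9, 16.003 and 3.58 CPM in pCEC, and 1.24, 0.704 and 0.999 CPM in pNCC. The groups did not overlap, and the rise against pNCC was 58.2-fold in iCEC (5.86 ± 0.614, adjusted p 0.0019) and 11.5-fold in pCEC (3.53 ± 0.57, adjusted p 0.00139). Between iCEC and pCEC Col4a6 missed the threshold (2.34 ± 0.676, adjusted p 0.0554), and it passed without iCEC 1 (adjusted p 0.0392) and by DESeq2 (adjusted p 0.00308), within a range of adjusted p of 0.00308 to 0.39. The ratio of Col4a5 over Col4a6 per exon length was 7.90, 2.55 and 3.63 in iCEC, 4.54, 5.5 and 10.6 in pCEC, and 75.6, 103 and 73.3 in pNCC, so this pair was least even in pNCC.

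The Col4a3 and Col4a4 pair, known from kidney and lens basement membranes, was found at more than a few CPM in 2 pCEC libraries alone. Col4a3 (chr1:82586921-82722059, plus strand) had 0.0834, 0.327 and 0.744 CPM in iCEC, 26.3, 33.1 and 0.146 CPM in pCEC, and 0.155, 0.176 and 0.0285 CPM in pNCC. Col4a4 (chr1:82448423-82586849, minus strand) had 0.0417, 0.736 and 1.22 CPM in iCEC, 21.2, 22.8 and 0.511 CPM in pCEC, and 0.373, 0.528 and 0.171 CPM in pNCC. Library pCEC 3 thus sat with the other groups for both chains. Col4a4 was called higher in pCEC than in pNCC (5.48 ± 1.29, adjusted p 0.00827), although pCEC 3 overlapped pNCC, and its adjusted p ran up to 0.0649 over all settings. Col4a3 did not enter that test, because the filter on low counts asks for counts in as many libraries as a group holds. It had 879 and 1193 counts in pCEC 1 and 2, but 4 in pCEC 3. With polyA alone, which keeps pCEC 1 as the single pCEC library, its log2 fold change against pNCC was 7.78. Against pCEC it was not called in iCEC (-5.83 ± 1.76, adjusted p 0.0625). Its adjusted p there was 0.0262 without pCEC 3, within a range of 6.03e-05 to 0.317. Of the Col4a3 exon bases, 5.65% are shared with another annotated gene, C430014B12Rik, and the counting by strand is not given in the sources used here.

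**Figure D4:**
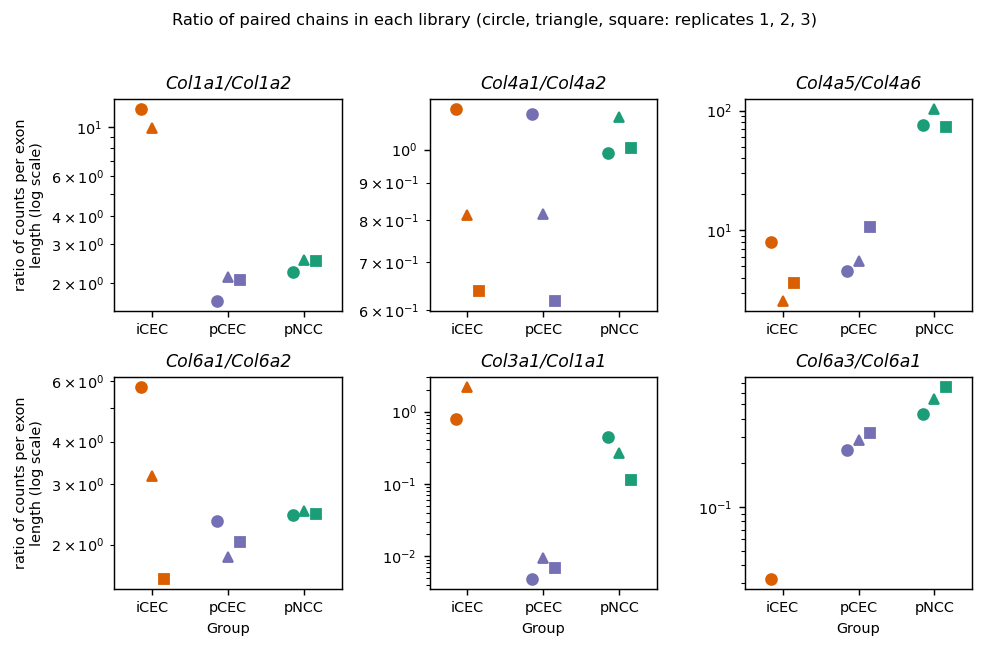
Ratio of the levels of partner chains per exon length (vertical log axis) in each library of iCEC, pCEC and pNCC. Points whose smaller count was under 10 are left out, so Col1a1 over Col1a2 and Col3a1 over Col1a1 lack iCEC 3, and Col6a3 over Col6a1 lacks iCEC 2 and iCEC 3. Col4a1 over Col4a2 lies near 1 in every group, and Col4a5 over Col4a6 lies between 73.3 and 103 in pNCC.

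The bases upstream of 2 further head to head pairs are printed because their members start close to each other. Col4a5 and Col4a6 start 1308 bases apart on chrX, and Col4a4 and Col4a3 start 71 bases apart on chr1, so the second sequence is the whole gap, on the Col4a4 strand. The bases are those upstream of the GENCODE starts, and RefSeq starts Col4a5 further downstream, at 141475419. Capitals mark GGGCGG or its reverse complement CCGCCC.
Col4a5, chrX:141475285-141475384, plus strand: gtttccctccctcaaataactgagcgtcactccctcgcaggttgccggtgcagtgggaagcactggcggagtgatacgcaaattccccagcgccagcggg
Col4a6, chrX:141474077-141474176, minus strand: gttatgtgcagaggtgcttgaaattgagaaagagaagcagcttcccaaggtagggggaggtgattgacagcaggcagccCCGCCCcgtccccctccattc
Col4a4 and Col4a3, chr1:82586850-82586920, minus strand: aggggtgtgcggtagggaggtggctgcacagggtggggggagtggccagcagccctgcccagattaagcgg
The 3 sequences hold 61.0%, 57.0% and 69.0% G and C, and 7, 2 and 2 CpG, in the order printed.

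The last basement membrane chains each followed a pattern of their own. Col18a1 (chr10:77052178-77166548, minus strand), the precursor of endostatin, had 351, 288 and 191 CPM in iCEC, 0.569, 2.27 and 4.42 CPM in pCEC, and 541, 706 and 300.1 CPM in pNCC. The iCEC and pNCC libraries overlapped, and every pCEC library lay far below both. It was 104-fold higher in iCEC than in pCEC (6.70 ± 0.872, adjusted p 0.00581; 7.49 without pCEC 3), and 192-fold lower in pCEC than in pNCC (-7.58 ± 0.811, adjusted p 0.000209; -8.33 without pCEC 3, -9.78 with polyA alone). In iCEC against pNCC it did not pass (-0.85 ± 0.404, adjusted p 0.161). Col7a1 (chr9:108953586-108984875, plus strand), the anchoring fibril collagen under epithelia, had 35.0, 121 and 67.8 CPM in iCEC, 185, 242 and 214 CPM in pCEC, and 92.8, 164 and 121 CPM in pNCC. It rose 1.86-fold in pCEC against pNCC (0.89 ± 0.225, adjusted p 0.0105; log2 fold change 0.58 and adjusted p 0.186 with polyA alone). In iCEC it passed neither against pNCC (-0.72 ± 0.502, adjusted p 0.323) nor against pCEC (-1.62 ± 0.471, adjusted p 0.0555), and without iCEC 2 it passed both, at -1.40 (adjusted p 0.043) and -2.23 (adjusted p 0.0152), within ranges of adjusted p of 0.043 to 0.591 and 0.00728 to 0.526. Col15a1 (chr4:47208161-47313167, plus strand) had 0.167, 1.55 and 0 CPM in iCEC, 0.509, 1.39 and 0.584 CPM in pCEC, and 51.4, 54.9 and 15.8 CPM in pNCC. Both corneal groups lay below pNCC, and the chain fell in pCEC (-5.45 ± 0.623, adjusted p 0.000287; -6.05 without pCEC 2 and -6.27 with polyA alone) and in iCEC (-6.02 ± 1.53, adjusted p 0.0288). The iCEC call ended without iCEC 1 (adjusted p 0.0752), pNCC 1 (adjusted p 0.0947), pNCC 2 (adjusted p 0.0988) or pNCC 3 (adjusted p 0.0639), and its size was -8.73 without iCEC 2.

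Of 6 fibril-associated chains tested, 2 rose and 2 fell in iCEC against pNCC (median log2 fold change -1.22), 2 rose and 3 fell in pCEC against pNCC (median -0.47), and 1 rose and 1 fell in iCEC against pCEC (median -1.54). The stromal members were lower in both corneal groups than in pNCC. Col12a1 (chr9:79598991-79718831, minus strand), which binds type I fibres, had 118, 48.8 and 30.8 CPM in iCEC, 99.5, 331 and 223 CPM in pCEC, and 2313, 2739 and 4983 CPM in pNCC. It fell 49.9-fold in iCEC (-5.64 ± 0.729, adjusted p 0.00341; -6.37 without iCEC 1) and 14.1-fold in pCEC (-3.81 ± 0.552, adjusted p 0.000889; -5.05 with polyA alone). Col16a1 (chr4:130047840-130099283, plus strand) had 5.15, 28.4 and 12.4 CPM in iCEC, 32.3, 124 and 53.9 CPM in pCEC, and 355, 307 and 309.6 CPM in pNCC, with a fall in iCEC (-4.35 ± 0.698, adjusted p 0.0066; -5.32 without iCEC 2) and in pCEC (-2.07 ± 0.469, adjusted p 0.00697; -2.73 without pCEC 2 and -3.29 with polyA alone). Col14a1, also a fibril-surface collagen, had 0.208, 8.96 and 0 CPM in iCEC, 0.778, 6.85 and 6.54 CPM in pCEC, and 93.97, 104 and 31.7 CPM in pNCC. All libraries of both corneal groups lay below pNCC. It fell in pCEC (-3.86 ± 0.813, adjusted p 0.00513; -6.57 with polyA alone), while in iCEC it did not pass (-4.50, adjusted p 0.119) except without iCEC 2 (-9.33, adjusted p 0.0101), within a range of adjusted p of 0.0101 to 0.264.

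The collagen IX chains, which coat type II fibrils of cartilage, did not move together. Col9a3 (chr2:180597790-180622189, plus strand) had 4.29, 24.3 and 182 CPM in iCEC, 1.68, 1.89 and 2.37 CPM in pCEC, and 1.49, 1.06 and 0.457 CPM in pNCC. All iCEC libraries were above all others, and iCEC 3 was highest. It rose in iCEC against pNCC (6.003 ± 1.43, adjusted p 0.0236) and against pCEC (4.93 ± 1.31, adjusted p 0.0438). Without iCEC 3 the 2 values were 3.94 (adjusted p 0.0142) and 2.84. Against pNCC the call ended without pNCC 1 (adjusted p 0.0847), pNCC 2 (adjusted p 0.0983) or pNCC 3 (adjusted p 0.0943), and against pCEC without iCEC 2 (adjusted p 0.0548), pCEC 1 (adjusted p 0.144), pCEC 2 (adjusted p 0.154) or pCEC 3 (adjusted p 0.136), with highest adjusted p of 0.119 and 0.481 over all settings. Of the Col9a3 exon bases, 6.07% overlap Tcfl5. Col9a1 had 0, 0 and 0.119 CPM in iCEC, 0.539, 12.1 and 3.87 CPM in pCEC, and 0.373, 0.0586 and 0.0571 CPM in pNCC. It rose in pCEC against pNCC (5.22 ± 1.29, adjusted p 0.0105; 5.82 without pCEC 1, 3.97 without pCEC 2, 6.598 without pNCC 1, and adjusted p 0.274 with polyA alone). In iCEC it fell against pCEC (-7.30 ± 1.77, adjusted p 0.0331), a call lost without iCEC 1 (adjusted p 0.0831), iCEC 2 (adjusted p 0.0755), pCEC 2 (adjusted p 0.105) or pCEC 3 (adjusted p 0.0904), with adjusted p up to 0.541. Col9a2 was at 0, 0 and 5.57 CPM in iCEC, 0.120, 0.222 and 0 CPM in pCEC, and 0.622, 0.293 and 0.0571 CPM in pNCC, so that 1 library holds its counts in iCEC, and it was not called (2.34, adjusted p 0.453). Without iCEC 3 the remaining iCEC libraries are at 0, and Col9a2 was called lower than in pNCC (adjusted p 0.0497, the lowest over all settings), with no measure of size. Col20a1 averaged 3.11 ± 0.870 CPM in iCEC, 6.61 ± 1.59 CPM in pCEC and 0.839 ± 0.352 CPM in pNCC. It rose in pCEC (3.12 ± 0.408, adjusted p 0.000465) and in iCEC (1.91 ± 0.52, adjusted p 0.0355) against pNCC, the iCEC call being lost without iCEC 2 (adjusted p 0.0717), pNCC 1 (adjusted p 0.0886), pNCC 2 (adjusted p 0.141) or pNCC 3 (adjusted p 0.135).

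Col17a1 was the transmembrane chain called higher in both corneal groups than in pNCC. It encodes BP180, the collagen of hemidesmosomes, which tie epithelial cells to their basement membrane. Col17a1 (chr19:47646344-47692094, minus strand) had 1383, 957 and 1575 CPM in iCEC, 3639, 5397 and 4683 CPM in pCEC, and 4.85, 8.30 and 13.6 CPM in pNCC. The groups did not overlap. It was 144-fold higher in iCEC than in pNCC (7.17 ± 0.517, adjusted p 0.000623) and 557-fold higher in pCEC than in pNCC (9.12 ± 0.544, adjusted p 1.4e-05), and leaving out any 1 library kept both calls. It was 3.87-fold lower in iCEC than in pCEC (-1.95 ± 0.303, adjusted p 0.00847), with -2.13 to -1.78 when 1 library was left out. Its level was 217 ± 52.6 CPM per kilobase of exon in iCEC, 761 ± 147 in pCEC and 1.48 ± 0.732 in pNCC (SD, n = 3 each). The corneal epithelium marker sum given above runs in the same order over the 3 groups, but not every member does. Between iCEC and pCEC, 5 of the 9 markers were called lower in iCEC and 0 higher. Krt14 averaged 7768 CPM in iCEC against 1282 CPM in pCEC, and Cdh1 809 CPM against 515 CPM. The part of these markers was not tested.
The 100 bases upstream of the GENCODE start of Col17a1, shown as the chain with the highest level per exon length in both corneal groups, hold TATAAA, the letters of a TATA box, at 2 places, in capitals.
Col17a1, chr19:47692095-47692194, minus strand: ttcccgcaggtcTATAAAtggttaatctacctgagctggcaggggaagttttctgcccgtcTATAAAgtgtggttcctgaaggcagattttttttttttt
The matches begin 88 and 39 bases upstream of the GENCODE start at 47692094, while RefSeq places the start downstream, at 47692042, and the stretch holds 42% G and C and 2 CpG. In the 250 bases upstream of the RefSeq start, on both strands, TATAAA was present for 13% of 27025 RefSeq promoters and for 5 of the 33 chains with an entry (15.2%), namely Col3a1, Col10a1, Col13a1, Col11a2 and Col17a1. GGGCGG was present for 32.9% of all promoters and 19 of the 33 chains (57.6%), and CCAAT for 34.5% of all and 12 of the chains (36.4%). The median number of CpG was 6 over all promoters and 10 over the 33 chains. The part of base composition in the GGGCGG shares was not tested. CAGGTG was present for 17.1% of all and 3 of the chains (9.09%), and GTCTAGAC for 0.174% of all and 0 of the chains.

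The other transmembrane chains had fewer counts. In the class 1 of 3 rose and 1 fell in iCEC against pNCC (median log2 fold change -3.54), 2 of 4 rose and 2 fell in pCEC against pNCC (median 1.32), and 0 of 3 rose and 2 fell in iCEC against pCEC (median -1.95). Col13a1 (chr10:61838236-61979108, minus strand), found at cell junctions with matrix, was at 0 in all iCEC libraries, at 2.45, 10.5 and 6.57 CPM in pCEC, and at 0.560, 0.117 and 0 CPM in pNCC. It was higher in pCEC than in pNCC (5.01 ± 1.07, adjusted p 0.00551). The value was 6.85 without pNCC 1, 4.42 without pNCC 3 and 3.49 with polyA alone. Col13a1 was at least 83.8-fold lower in iCEC than in pCEC by a floor of 3 counts in each library (adjusted p 0.00944). Col23a1 averaged 3.04 ± 2.47 CPM in iCEC, 9.45 ± 3.93 CPM in pCEC and 54.1 ± 18.2 CPM in pNCC. The fall in pCEC was called (-2.36 ± 0.41, adjusted p 0.00208; -3.41 with polyA alone) and so was that in iCEC (-4.07 ± 0.873, adjusted p 0.0168), where the call was lost without iCEC 2 (adjusted p 0.0534), pNCC 1 (adjusted p 0.0597) or pNCC 2 (adjusted p 0.062), and the value was -4.78 without iCEC 1. Col25a1, known from neurons, had 0, 0.136 and 19.1 CPM in iCEC, 0.120, 0.222 and 0 CPM in pCEC, and 90.5, 79.1 and 29.1 CPM in pNCC. The chain fell in pCEC (-8.90 ± 0.722, adjusted p 5.76e-05; -9.76 without pCEC 2) and did not pass in iCEC (-3.54, adjusted p 0.225), though it did without iCEC 3 (-9.94, adjusted p 0.00131), within a range of adjusted p of 0.00131 to 0.39.

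The rest of the class of other chains was rare. Col28a1, a chain of peripheral nerve sheaths, had 0, 0 and 0.863 CPM in iCEC, 0.180, 0.388 and 0.110 CPM in pCEC, and 20.0, 19.5 and 4.45 CPM in pNCC. A fall was called in pCEC (-5.81 ± 0.747, adjusted p 0.000501; -6.45 without pCEC 2) and in iCEC (-5.82 ± 1.76, adjusted p 0.0494). Leaving out iCEC 3 leaves iCEC at 0, where it was still called lower (adjusted p 0.00414) with no measure of size, and without iCEC 1 (adjusted p 0.0778, log2 fold change -5.22), iCEC 2 (adjusted p 0.0853), pNCC 1 (adjusted p 0.143), pNCC 2 (adjusted p 0.146) or pNCC 3 (adjusted p 0.0964) the call ended, the highest adjusted p over all settings being 0.146. Col6a4 was at 0 in all iCEC and pCEC libraries and at 1.12, 0.469 and 0.343 CPM in pNCC. By the floor of 3 counts in each library it was at least 8.27-fold lower in iCEC (adjusted p 0.0147) and at least 6.83-fold lower in pCEC (adjusted p 0.0046). In iCEC the adjusted p was 0.0544 without pNCC 1, 0.06 without pNCC 2, and up to 0.076 over all settings. Col26a1 stood at 0.459, 0.0545 and 18.5 CPM in iCEC, 0.0598, 0.111 and 0.146 CPM in pCEC, and 0.342, 0.411 and 0.0571 CPM in pNCC, and was not called (4.38, adjusted p 0.146); without iCEC 3, which holds nearly all its iCEC counts, the log2 fold change was 0.03 (adjusted p 0.986). Col6a6 was at 0 in iCEC, at 0.0898, 0.444 and 0.0730 CPM in pCEC and at 1.31, 0.528 and 0.0856 CPM in pNCC, and was not called in pCEC (-1.45, adjusted p 0.256). The 4 chains Col19a1, Col22a1, Col6a5 and Col10a1 passed the filter on low counts in no comparison. By library, iCEC had 27 to 32 chains over 3 counts, pCEC 33 to 36 and pNCC 32 to 41.

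**Figure D5:**
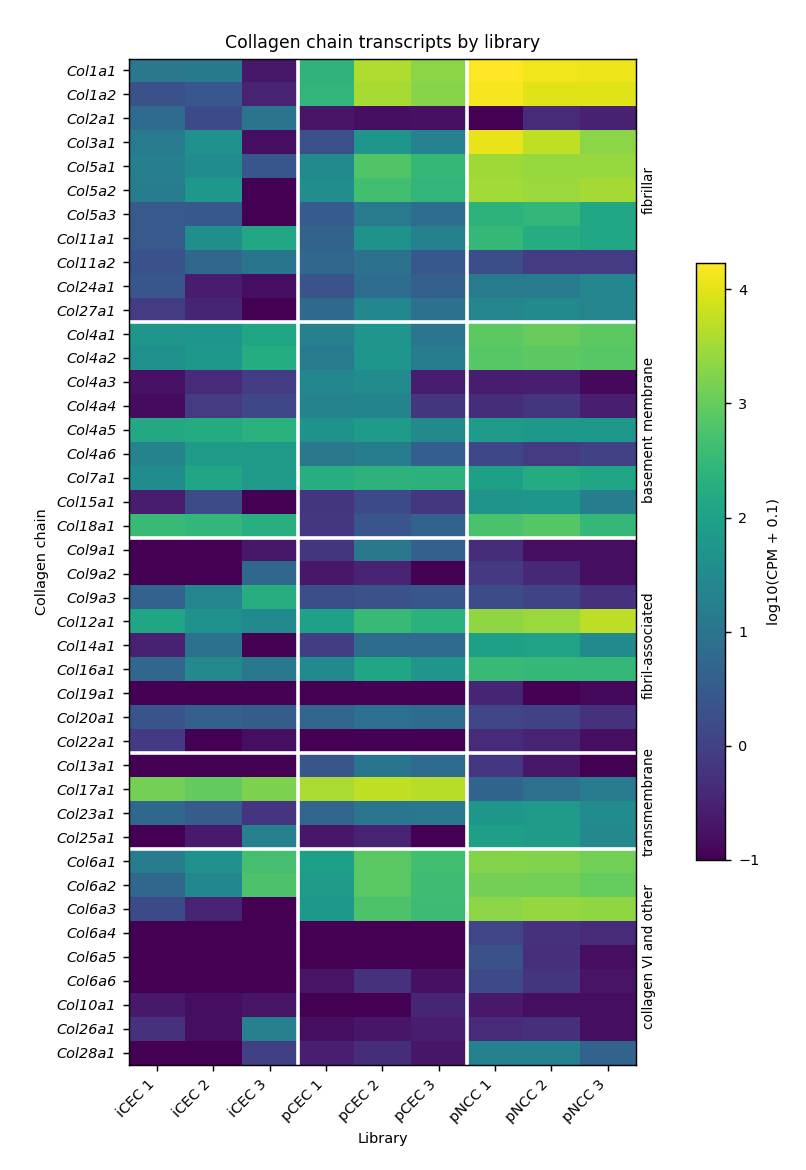
Log10 of CPM plus 0.1 (colour) of the 42 chains in each of the 9 libraries, with chains grouped by class. Yellow is high and dark purple is low. The Col1a1 and Col1a2 rows are blue to purple in iCEC, green in pCEC and yellow in pNCC, and the Col17a1 row is green to yellow in iCEC and pCEC and blue in pNCC.

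Genes that modify, fold, cut and crosslink collagen were largely lower in both corneal groups than in pNCC. Of 15 genes for hydroxylation and glycosylation, 0 rose and 12 fell in iCEC against pNCC, with a median log2 fold change of -1.81, and the 3 that were not called were P4ha2 (-0.99), P3h2 (0.79) and P3h4 (-0.12). Plod1, a lysyl hydroxylase, fell 21.8-fold in iCEC (-4.45, adjusted p 0.000436), and Plod3 (-2.69, adjusted p 0.000431) and the prolyl 3-hydroxylase P3h3 (-3.78, adjusted p 0.000509) fell too. In pCEC 2 of the 15 were higher, P3h2 (3.15) and Colgalt2 (5.20), and 13 were lower (median -2.26), with Plod3 (-3.76) and Crtap (-2.26) among those of smallest adjusted p. Between iCEC and pCEC, 4 rose, 3 fell and 8 were not called, among them Plod2 higher (4.31, adjusted p 0.00369) and Colgalt2 lower (-8.86, adjusted p 0.00467) in iCEC. Of 10 folding and export genes, 0 were higher and 7 lower in iCEC against pNCC (median -2.88), with Serpinh1, the collagen chaperone, at 134, 72.5 and 318.5 CPM in iCEC, 40.9, 129 and 89.4 CPM in pCEC, and 2737, 2753 and 2351 CPM in pNCC, a 15.7-fold fall in iCEC (adjusted p 0.00321; -4.60 without iCEC 3). In pCEC 1 was higher, Mia2 (0.87), and 9 were lower (median -2.72), of which Sec24d, a coat protein for large cargo, had -4.04, and between iCEC and pCEC 1 was higher, Tmem38b (1.65, adjusted p 0.0213, lost without iCEC 1 at 0.0595, pCEC 1 at 0.0828, pCEC 2 at 0.102 or pCEC 3 at 0.0631, adjusted p up to 0.36 over all settings).

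Of the propeptide-removing genes, 4 of 7 were lower in iCEC and 6 of 8 in pCEC against pNCC, and 0 were higher in either (medians -4.74 and -3.42). At an unadjusted p under 0.05 edgeR had 0 higher in iCEC for this list and for the hydroxylation, folding and crosslinking lists, and DESeq2 called 0 higher in each of the 4. Adamts2, a procollagen N-proteinase, fell 98.1-fold in iCEC (-6.62, adjusted p 0.000268), and Bmp1, a C-proteinase, fell by 3.34 in iCEC (adjusted p 0.00105) and by 3.86 in pCEC. In iCEC against pCEC edgeR called 0 of 6, while 3 had an unadjusted p under 0.05, and DESeq2 called 3, all lower. Of the crosslinking genes, 5 of 6 were lower in iCEC, where Loxl4 (0.70) did not pass, and 6 of 6 in pCEC, against pNCC (medians -6.24 and -6.27). Loxl2 had -6.50 in iCEC and -6.62 in pCEC, and Loxl3 had -7.94 in iCEC and -6.45 in pCEC. Lox, the lysyl oxidase that crosslinks collagen and elastin, had 21.8, 6.65 and 29.6 CPM in iCEC, 5.27, 24.0 and 21.8 CPM in pCEC, and 3388, 2617 and 3296 CPM in pNCC, and it fell 166-fold in iCEC (-7.38, adjusted p 0.000923). Set against pCEC, iCEC had 2 higher, Loxl4 (5.68, adjusted p 0.00761; 4.88 without iCEC 3) and Pxdn, which crosslinks collagen IV (4.28, adjusted p 0.0161; adjusted p 0.0572 without pCEC 1 and adjusted p 0.0763 without pCEC 3, 3.55 without iCEC 3, adjusted p up to 0.222 over all settings).

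Collagen receptors moved in both directions against pNCC, and most hemidesmosome genes rose. Against pNCC, 1 of 8 receptors was higher in iCEC, Ddr1 (1.37, adjusted p 0.0279), a receptor of epithelia, and 4 were lower. Itga11, the integrin chain that binds type I collagen on stromal cells, fell 658-fold (-9.36, adjusted p 0.000808; -10.25 without iCEC 3), and Mrc2, an endocytic collagen receptor, fell 282-fold (-8.14; -8.74 without iCEC 1). Itgb1 fell by 1.33 (adjusted p 0.0111; adjusted p 0.0539 without pNCC 2 and adjusted p 0.0502 without pNCC 3). In pCEC 2 of 9 were higher, Itga2 (2.84) and Ddr1 (2.63), and 5 were lower, which is 77.8% called against 62.5% of all genes. Against pCEC, 1 of 8 was higher in iCEC, Itgb1 (1.46), lost without pCEC 1 (adjusted p 0.051), pCEC 2 (adjusted p 0.0627) or pCEC 3 (adjusted p 0.0507), with adjusted p up to 0.311, and 2 were lower, Mrc2 (-5.53) and Itga11 (-4.67, or -5.53 without iCEC 3), the last lost without iCEC 1 (adjusted p 0.0606), iCEC 2 (adjusted p 0.0697), pCEC 2 (adjusted p 0.088) or pCEC 3 (adjusted p 0.0884), with adjusted p up to 0.523. Hemidesmosome genes, which include the partners of Col17a1, were higher against pNCC for 6 of 8 in iCEC and 7 of 8 in pCEC (medians 3.32 and 2.59), with 0 lower. At an unadjusted p under 0.05, edgeR had 1 lower in iCEC and 0 in pCEC, as DESeq2 did after adjustment. Itgb4, the integrin chain that Col17a1 binds, had 654, 599.7 and 556 CPM in iCEC, 479, 881 and 929.9 CPM in pCEC, and 11.2, 15.4 and 15.5 CPM in pNCC, a 43.4-fold rise in iCEC (5.44, adjusted p 0.000293), and Lama3 rose by 4.48 in iCEC and 4.50 in pCEC. Against pCEC, Plec, a linker of hemidesmosomes to keratin filaments, was lower in iCEC (-1.17), and its call ended without iCEC 1 (adjusted p 0.0828), iCEC 2 (adjusted p 0.079), pCEC 2 (adjusted p 0.138) or pCEC 3 (adjusted p 0.135), with adjusted p up to 0.63.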

How the data were processed

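RNA sequencing data of 9 mouse libraries (3 iCEC, 3 pCEC and 3 pNCC) were used. The deposited table holds whole-number counts per gene symbol, which the authors did not normalize. The submitters' processing notes name edgeR and mm10; the aligner, counter, annotation and use of strand are not given in the sources used here. The members and gene lists were chosen with earlier results of these data known. Each pair of groups was fitted on its 6 libraries with edgeR 4.0.16 (TMM scaling, filterByExpr, robust quasi-likelihood fit and test; R 4.3.3), with Benjamini-Hochberg adjustment over all genes tested and a threshold of 0.05. SEs were derived from the F statistic and the log2 fold change. CPM used library totals without TMM. Exon lengths and positions are from GENCODE M21 (mm10), and sequences from RefSeq (GRCm38.p6), where 33 of the 42 chains had a promoter entry. Chains with a mean of at least 10 CPM in a group, and Col1a2, Col17a1 and Col4a1, were described in full, as were some rarer chains. Of each list up to 3 called genes with the smallest adjusted p were named. Alternatives were DESeq2 1.42.0, other scalings, no filter, all 9 libraries in one fit, the replicate number as a block, polyA libraries alone, and each library left out. The tests were also run on simulated counts whose libraries varied alike within a group. That run cannot show how a library that lies apart, such as iCEC 3, or the labelled RNA kind bears on the calls. The tool for drawing was matplotlib 3.10.9. The result of 1 further gene of the lists is not reported here.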

Additional observations from a re-analysis of the deposited data

How the results depend on the processing

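Genes called in iCEC against pNCC numbered 5093 in all, 2864 with the replicate number as a block and 2322 to 7684 with 1 library left out (7684 without iCEC 3). Chains higher there were 7, or 3 with the block and 3 to 6 with 1 library left out, and chains lower were 15, or 8 to 22. Chains lower in pCEC against pNCC were 20, or 12 with all 9 libraries in one fit. Between iCEC and pCEC, genes called were 3327, or 1295 with the block, 0 with polyA libraries alone (1 pCEC library, where no gene passed) and 1131 to 4974 with 1 left out. Chains higher were 4, or 2 with the block, 0 with polyA alone and 2 to 5. Chains lower were 7, or 14 by DESeq2, 4 without a filter, 12 with all 9 libraries, 3 with the block, 0 with polyA alone and 3 to 7. Directions turned for chains not called with all libraries: Col9a2 in iCEC against pNCC (-2.11 with the block, range -6.55 to 3.19 with 1 library left out; the -6.55, without iCEC 3, was called lower at adjusted p 0.0497, in a fit against iCEC libraries at 0 that gives no measure of size), and in iCEC against pCEC Col3a1 (0.09 without iCEC 3, range -1.98 to 0.63, 3.47 with polyA alone), Col11a1 (-0.23 without iCEC 3, range to 2.05), Col11a2 (0.28 without iCEC 1, range -0.69 to 0.46, 0.12 with polyA alone), Col15a1 (range -3.26 to 0.039, 0.23 with polyA alone), Col14a1 (2.04), Col6a1 (0.91) and Col6a2 (1.36), the last 3 with polyA alone. Over single-gene results, 1622 settings kept direction and side of the threshold, 44 passed anew, 167 lost the call and 15 turned. The cause was not tested. Deviations of same-numbered libraries from their group means correlated at -0.183 to 0.07, and not every library correlated best with its own number. With 3 libraries per group this check cannot exclude a pairing by number, and the main fits used none. Values under 3 counts, 0.0625 to 0.110 CPM, limit the rare chains.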
